A study of Mus musculus with 12 samples.

Results

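The effect of reduced *Tfap2a* function on gene expression was compared between the nasal and the maxillary prominence of the mouse embryo at E10.5, as the difference of 2 genotype differences. This interaction was taken as NeoNull minus control in nasal tissue less NeoNull minus control in maxillary tissue, in log2 units. A positive value therefore stands for a gene whose NeoNull level, relative to control, was higher in the nasal than in the maxillary prominence. It was computed for the 22148 of 45101 probe sets that were called present in both genotypes of at least 1 prominence, with the 64 control probe sets of the array left out. These probe sets stood for 10695 named genes, and 20153 of them were called present in both genotypes of both prominences.

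NeoNull embryos carried an aflox allele of *Tfap2a*, which the study calls Neo and which carries an inserted neomycin cassette, over a null allele, and develop a bilateral cleft of the lip and palate. The controls were aflox/wt, so both genotypes carried the aflox allele and the comparison is not one with wild-type embryos. Frontal nasal and maxillary tissue was dissected from embryos of both genotypes and pooled, with 3 pools and 3 Affymetrix arrays in each of the 4 groups. Nasal and maxillary arrays of 1 genotype and replicate number were treated as 1 pool, which gave 3 NeoNull and 3 control pools. In pooled tissue, a change in the number of cells of a type and a change in RNA per cell cannot be told apart.

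*Tfap2a* encodes AP-2α, a transcription factor of the surface ectoderm and the neural crest, and its loss in the mouse disrupts the face and the closure of the neural tube. The nasal prominences surround the olfactory placodes and overlie the forebrain, which is a source of secreted signals for the midface. The maxillary prominences arise from the first pharyngeal arch, carry the Dlx code of that arch and hold axons and cells of the trigeminal nerve. Both must grow and meet for the upper lip to close.

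The tissue labels were checked against regional genes. *Dlx1*, *Dlx2*, *Barx1*, *Lhx6* and *Lhx8*, markers of the maxillary arch, were higher in maxillary tissue in 6 of 6 pools, and *Pitx1* in 5 of 6. *Pax7*, *Pax6*, *Alx1* and *Six3* were higher in nasal tissue in 6 of 6 pools. *Tfap2a* itself lay between 9.06 and 9.22 on all 12 arrays, with an interaction of -0.04 ± 0.07 (SE). Its other tested probe sets had 0.10 and -0.06. Whether these probe sets separate the aflox transcripts from the normal ones was not examined. 1 library stood apart: control maxilla replicate 3 had the lowest summed signal of 22 neuronal genes of all 12 arrays, 2803 against 5322 and 6141 in the other control maxillary pools.

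No probe set passed limma's adjusted threshold for the interaction, and the smallest adjusted p was 0.377 (0 of 22148, 0%). At an unadjusted p under 0.05 there were 1457 probe sets, which is 6.58% of those tested. Of these, 1053 had a positive interaction (4.75% of those tested) and 404 a negative one (1.82%), and 510 also differed by more than 0.32 on the log2 scale, the fold threshold of the study (2.3%). Under other settings 0 to 2 probe sets passed the adjusted threshold, and those of *Emx2* and *Zic1* were among them. Without control pool 3 the count at unadjusted p under 0.05 was 3027, and without control pool 1 it was 845. The excess of positive values depended on the scaling of the arrays. The share of positive values among the probe sets at unadjusted p under 0.05 was 72.3% in the values as deposited, 61.2% after quantile normalization and 45.5% when each array was centred on the median of the tested probe sets, a setting chosen after seeing the data. The median interaction of all tested probe sets was 0.02, and the median size 0.09 against a median standard error of 0.11. A count of genes in 1 direction is therefore read below only against the genes tested as a whole.

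The genotype differences that make up the interaction were of similar size. In nasal tissue 1 probe set passed the adjusted threshold (0.00452%), that of *Zic1*, and 1012 had an unadjusted p under 0.05 (4.57%). In maxillary tissue 0 passed by limma's adjusted p (0%) and 1302 had an unadjusted p under 0.05 (5.88%). The difference between the prominences was far larger in both genotypes: 2620 probe sets passed the adjusted threshold in the control pools (11.8%) and 3021 in the NeoNull pools (13.6%). Of the 1457 probe sets at unadjusted p under 0.05 for the interaction, 1330 (91.3%) had genotype differences of opposite sign in the prominences, compared with 48.8% of all tested probe sets. Opposite signs enlarge this measure by construction. In 78 the sign was shared and the maxillary difference larger, and in 49 it was shared and the nasal difference larger.

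**Figure D1:**
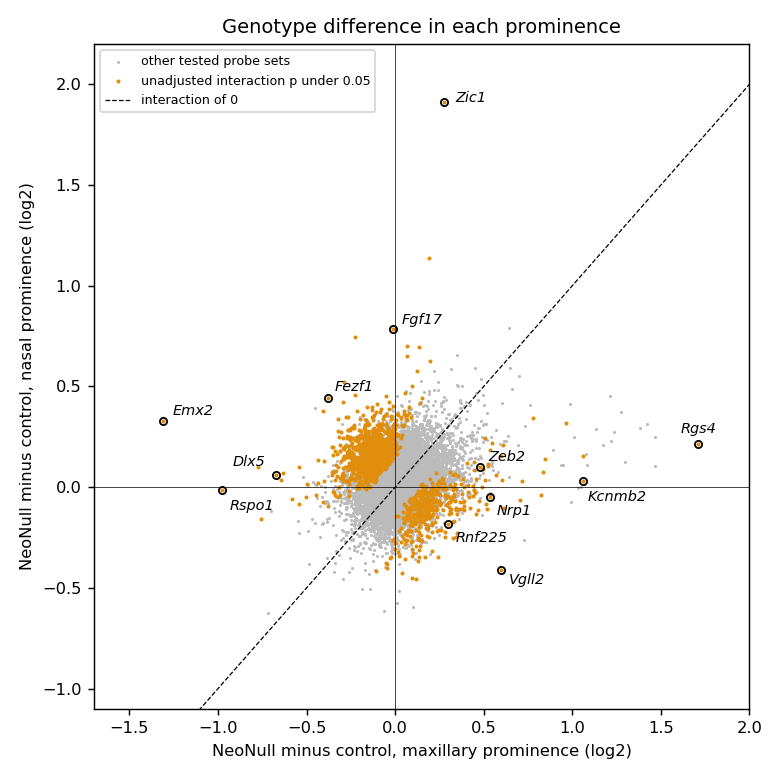
Genotype difference in the nasal prominence (vertical axis) against that in the maxillary prominence (horizontal axis), both as NeoNull minus control in log2 units, for the 22148 tested probe sets, with 12 genes circled. The dashed line marks an interaction of 0: *Zic1* lies above it through its nasal difference of 1.91, *Emx2* and *Rspo1* through maxillary differences of -1.31 and -0.98, and *Rgs4* below it through a maxillary difference of 1.71.

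With the pools treated as paired across prominences, the interaction can be read as the nasal minus maxillary difference within a pool. It is then compared between 3 NeoNull and 3 control pools. In 2581 probe sets these differences did not overlap between genotypes (11.7%), 1766 of them with a positive interaction. An exact permutation test of 3 against 3 pools cannot go below p = 0.1, so for single genes the spread of the pools is given instead. Full separation is the ordering with that p, so a share near 0.1 would arise without any genotype difference. In 112 probe sets (0.506%) the genotypes did not overlap in either prominence and differed in opposite directions, and 87 of these were higher in NeoNull nasal tissue. A share close to this would also arise without a genotype difference if the prominences varied independently. Lack of overlap is therefore given below as a description only.

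The 2 largest positive interactions belonged to transcription factor genes, and they were built in opposite ways. *Emx2*, a homeobox gene of the dorsal forebrain and the olfactory region, measured 5.75, 6.34 and 5.41 in the control and 4.60, 4.75 and 4.23 in the NeoNull maxillary pools. In nasal tissue it measured 6.40, 6.60 and 6.26 in control and 6.80, 6.79 and 6.65 in NeoNull pools. The genotypes did not overlap in either prominence, and lay in opposite order. The interaction was 1.64 ± 0.25 (SE; 95% interval 1.09 to 2.19), a 3.12-fold difference, with limma's adjusted p = 0.377. The nasal excess of *Emx2* over maxilla was 0.58 ± 0.30 (SD, n = 3) in control and 2.22 ± 0.20 (SD, n = 3) in NeoNull pools. On log2 of the linear value plus 32, an offset that shrinks differences at dim levels, the interaction of *Emx2* was 0.95.

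*Zic1*, a zinc finger gene of the dorsal neural tube and of periocular tissue, had the same interaction of 1.64 ± 0.27 (SE) from a nasal difference. Its nasal level was 4.0, 4.14 and 4.77 in control and 6.28, 6.13 and 6.23 in NeoNull pools, a rise of 3.77-fold with limma's adjusted p = 0.0299. In maxillary tissue, where it was not called present in both genotypes, it measured 3.21, 2.58 and 2.88 in control and 2.89, 3.36 and 3.25 in NeoNull pools, which overlapped. With the offset of 32 its interaction was 0.98. *Zic5*, the other family member tested, had an interaction of -0.44 ± 0.13, with a maxillary difference of 0.60 ± 0.10 and a nasal one of 0.15 ± 0.10, and its other probe set -0.65.

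The promoter windows of both genes are shown because a factor that binds DNA was the one reduced, and they differ in the palindromic AP-2 consensus GCCNNNGGC, searched on both strands. The sequences are those of RefSeq on GRCm38.p6, from 250 bases before the annotated start to 50 after it, in the direction of the gene, with matches in capitals. The window of *Emx2* is chr19:59458440-59458739 on the plus strand and that of *Zic1* is chr9:91365719-91366018 on the minus strand, and a window of *Zeb2*, a negative gene described below, is chr2:45113204-45113503 on the minus strand.
Emx2: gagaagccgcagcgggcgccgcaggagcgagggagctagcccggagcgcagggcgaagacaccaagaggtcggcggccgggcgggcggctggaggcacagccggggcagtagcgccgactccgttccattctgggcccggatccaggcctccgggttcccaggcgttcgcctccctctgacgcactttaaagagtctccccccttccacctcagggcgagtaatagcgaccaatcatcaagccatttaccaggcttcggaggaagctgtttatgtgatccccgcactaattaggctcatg
Zic1: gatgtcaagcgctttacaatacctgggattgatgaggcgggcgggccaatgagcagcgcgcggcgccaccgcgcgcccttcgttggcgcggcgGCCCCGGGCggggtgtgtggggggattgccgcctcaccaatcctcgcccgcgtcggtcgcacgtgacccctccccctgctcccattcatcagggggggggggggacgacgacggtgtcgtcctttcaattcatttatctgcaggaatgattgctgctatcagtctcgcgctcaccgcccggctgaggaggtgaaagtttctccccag
Zeb2: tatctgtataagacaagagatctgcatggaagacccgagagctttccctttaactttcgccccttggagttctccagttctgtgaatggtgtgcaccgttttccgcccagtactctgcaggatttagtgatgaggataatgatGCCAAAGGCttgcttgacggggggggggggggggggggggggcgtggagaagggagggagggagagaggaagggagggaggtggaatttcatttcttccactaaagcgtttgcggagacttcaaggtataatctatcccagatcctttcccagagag
The window of *Zic1* held 1 match, that of *Emx2* held 0, and the window of *Zeb2* held 1, as did an overlapping one, out of 4 windows of that gene. Of the 20 genes with the smallest p by direction, 17 had a window and 7 of these a match (41.2%). Of all 32851 single windows, 16.6% held a match. Counted by gene, with a match in any window, the share was 18.5% of all 27025 genes with a window. It was 29.7% of the 8702 tested genes with a window and 33.7% of those at unadjusted p under 0.05. A match is a description of the letters and not a binding site.

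The other positive genes with the smallest p were of mixed function. *Rspo1*, a secreted enhancer of Wnt signaling, was lower in NeoNull maxillary tissue alone: 5.07, 4.95 and 4.81 in control against 3.83, 4.29 and 3.79 in NeoNull pools. In nasal tissue it measured 6.64, 6.63 and 6.74 in control and 6.50, 6.59 and 6.88 in NeoNull pools, which overlapped. Its interaction was 0.96 ± 0.18, and its maxillary level was below the presence call in at least 1 genotype. With the offset of 32 the interaction was 0.39. *Fezf1*, a zinc finger gene of the forebrain and olfactory epithelium, differed in opposite directions, by 0.44 ± 0.12 in nasal and -0.38 ± 0.12 in maxillary tissue. Its nasal levels were 7.20, 7.60 and 7.0 in control and 7.77, 7.67 and 7.70 in NeoNull pools, and its maxillary levels were 4.50, 4.42 and 4.51 in control and 4.02, 4.14 and 4.12 in NeoNull pools, without overlap in either prominence. Its interaction of 0.82 became 0.52 with the offset. *Crnde* (0.55), *Vstm2b* (0.55), *Fbrs* (0.54), *Sbf1* (0.49), *Pck2* (0.47), an enzyme of gluconeogenesis, and *Gga3* (0.37), an adaptor of vesicle transport, made up the rest, with standard errors of 0.08 to 0.11. *Vstm2b* had 0.35 with the offset, and the other probe sets of *Fbrs* and *Sbf1* had 0.26 and 0.18.

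**Figure D2:**
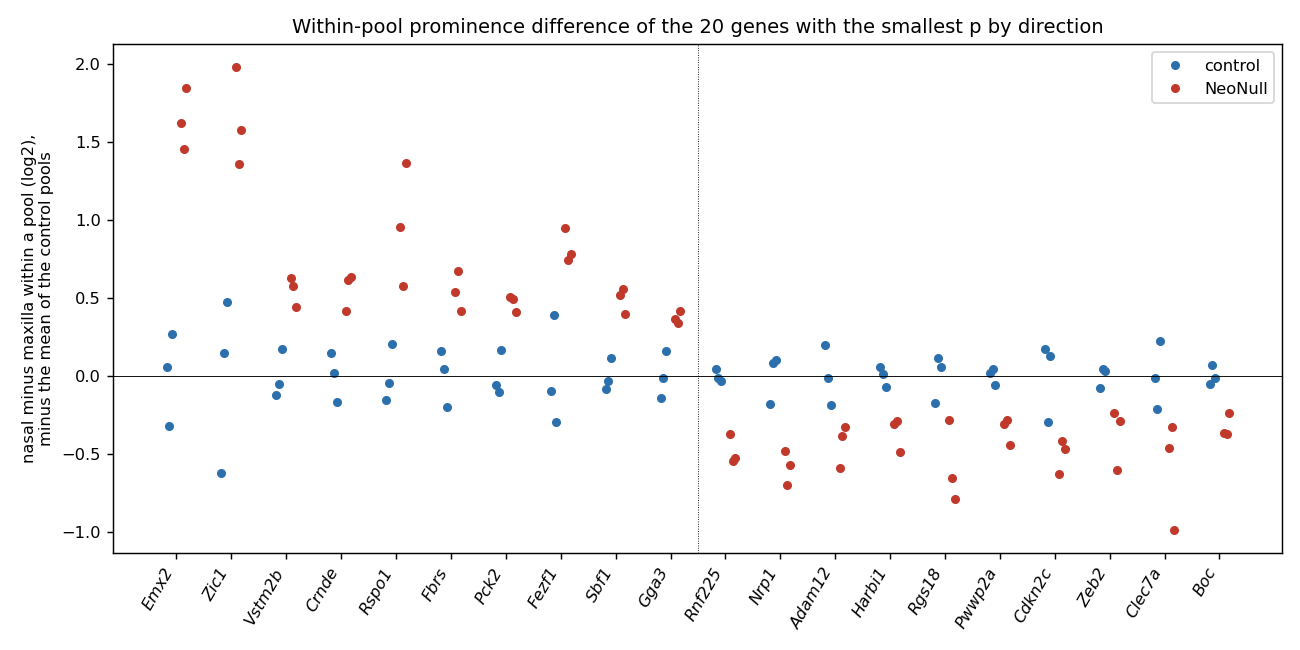
Nasal minus maxillary log2 difference within each pool, less the mean of the control pools (vertical axis), for the 10 positive (left) and 10 negative (right) genes with the smallest p. Points are the 3 control and 3 NeoNull pools. The genes were chosen by this contrast, so their separation is a description: *Emx2* and *Zic1* stand 1.64 apart on average, and *Boc*, at the right end, 0.32.

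The negative genes had smaller interactions. *Rnf225*, which encodes a RING finger protein, had the smallest p of all tested probe sets, with an interaction of only -0.48 ± 0.07. It measured 4.96, 5.06 and 4.98 in control against 5.27, 5.29 and 5.34 in NeoNull maxillary pools, and 5.25, 5.29 and 5.20 in control against 5.14, 4.99 and 5.06 in NeoNull nasal pools. The order of the genotypes was thus reversed between the prominences without overlap. *Rnf225* lay near the array medians of 5.13 to 5.19, which cover all 45101 probe sets, called present or not. With the offset of 32 its interaction was -0.25.

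*Zeb2*, a zinc finger repressor of neural crest and neural tissue, was higher in NeoNull maxillary tissue, at 8.0, 8.13 and 8.05 against 7.62, 7.50 and 7.63 in control. Its nasal level was 6.63, 6.63 and 6.75 in control and 6.85, 6.62 and 6.85 in NeoNull pools, and the interaction was -0.38 ± 0.10. The 3 other tested probe sets of *Zeb2* had interactions of -0.86, -0.41 and -0.32, so all 4 had the same sign. *Nrp1*, a receptor for semaphorins and Vegf, had -0.58 ± 0.14, again from maxillary tissue, with 8.24, 8.11 and 8.0 in control and 8.57, 8.90 and 8.49 in NeoNull pools. Its 3 other probe sets were at -0.25, -0.21 and -0.13. *Boc* (-0.32), a hedgehog coreceptor, and *Adam12* (-0.44), a metalloproteinase, had nasal differences of -0.24 and -0.29 and maxillary ones of 0.08 and 0.14. Their other probe sets did not repeat these values: that of *Boc* had an interaction of 0.11 ± 0.16, of the opposite sign, and that of *Adam12* -0.06 ± 0.13.

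**Figure D3:**
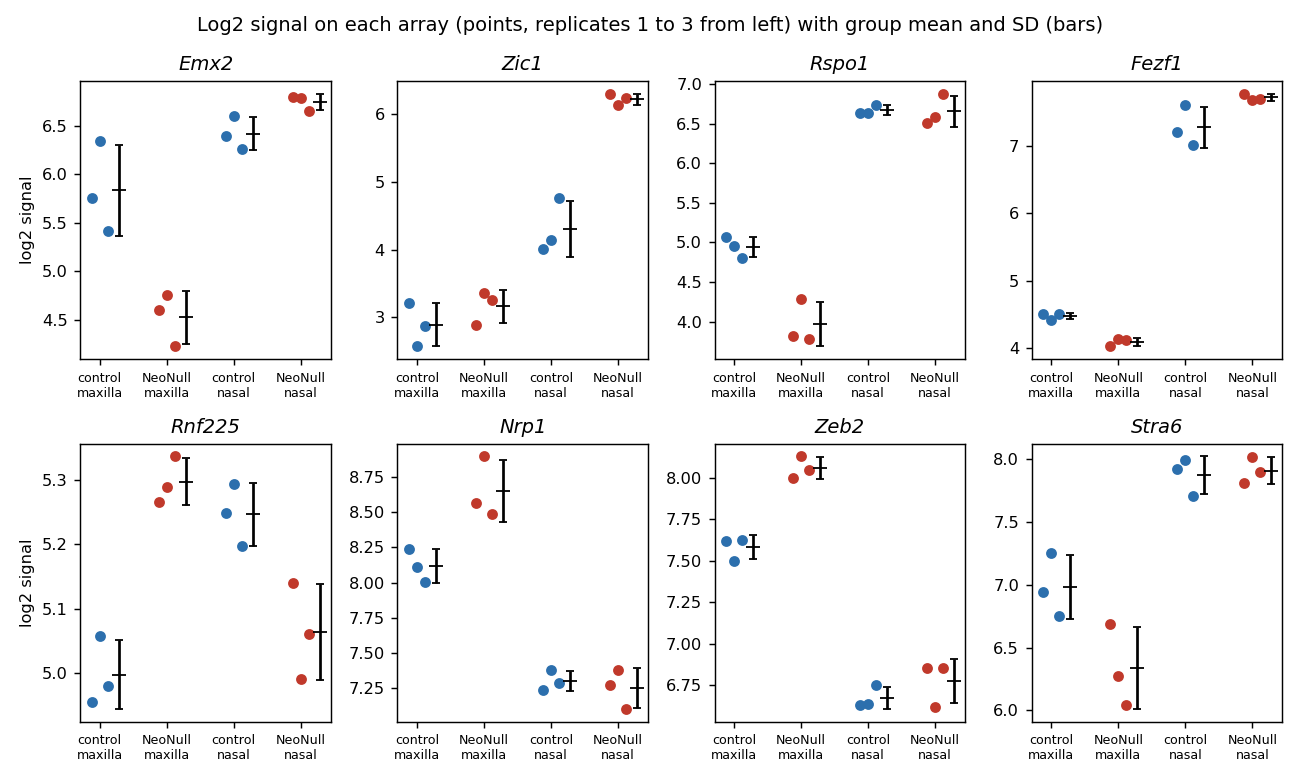
Log2 signal of 8 genes on each of the 12 arrays (points, replicates 1 to 3 from left in each group), with the group mean and SD (bars, n = 3). The vertical axes differ between genes and do not start at 0. *Zic1* is separated in nasal tissue only, *Rspo1*, *Nrp1*, *Zeb2* and *Stra6* in maxillary tissue only, and *Emx2*, *Fezf1* and *Rnf225* in both with opposite order.

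Of the 5 genes with the largest interactions at unadjusted p under 0.05, *Emx2* and *Zic1* were positive and *Rgs4*, *Kcnmb2* and *Vgll2* negative. All but *Emx2* failed the presence call in at least 1 genotype of 1 prominence. *Rgs4*, a regulator of G protein signaling found in neurons, measured 4.57, 4.58 and 3.10 in control and 5.73, 6.08 and 5.58 in NeoNull maxillary pools. Its interaction of -1.50 ± 0.46 became -0.79 without control pool 3. *Kcnmb2*, a potassium channel subunit, had -1.03 ± 0.40, which became -0.61 without that pool, and its low value was likewise in control maxilla replicate 3, at 5.49 against 6.99 and 6.98. *Vgll2*, a cofactor of arch ectoderm and muscle, had -1.01 ± 0.44 with overlapping pools, which became -1.44 without control pool 3 and -0.51 without control pool 1.

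Gene lists were described by the number of members with a positive interaction and by their median, beside all genes tested, of which 63.9% were positive with a median of 0.04. At the level of genes, 778 had an unadjusted p under 0.05 (7.27%), 640 positive (5.98%) and 138 negative (1.29%). No member of any of the 30 lists passed limma's adjusted threshold for the interaction. The members had been chosen with results of these arrays known, so the lists are a description and were not tested. The range of a median when 1 array or pool was left out stands in parentheses after it.

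Forebrain neuroepithelial genes had the highest median among the lists with more than 6 members tested: 12 of 13 were positive, with a median of 0.28 (0.12 to 0.40), and 2 had an unadjusted p under 0.05, *Emx2* and *Fezf1*. The ends of that range were reached without NeoNull maxilla replicate 2 and without NeoNull maxilla replicate 3. Part of the 13 were called present in 1 prominence only. With presence in both prominences required, fewer were tested and 5 of these were positive. The number tested fell too, so this count does not show a change of direction. *Six6*, of the ventral forebrain and eye, had 0.84 ± 0.44 and *Sox3*, of neural progenitors, 0.34 ± 0.16. *Six6* fell to 0.54 without control maxilla replicate 3, and *Sox3* to 0.21 without control pool 3. *Otx2* was the exception at -0.35. The summed signal of these genes in nasal tissue was 2413 to 2958 in control and 2886 to 3404 in NeoNull pools, and in maxillary tissue 895.6 to 1068 and 907.8 to 994.6. The part of adhering forebrain tissue in this result was not tested.

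Among genes of retinoic acid synthesis, breakdown and response, 10 of 11 tested were positive and the median was 0.10 (0.10 to 0.24). An unadjusted p under 0.05 was found for 4, all positive, and their genotype differences were mainly maxillary. *Stra6*, the membrane receptor for retinol uptake, measured 6.94, 7.25 and 6.75 in control and 6.69, 6.27 and 6.05 in NeoNull maxillary pools, and 7.92, 7.99 and 7.71 in control and 7.81, 8.02 and 7.90 in NeoNull nasal pools. Only the maxillary groups did not overlap, and the interaction was 0.68 ± 0.21. *Crabp1* (0.43 ± 0.12), a retinoic acid binding protein, *Dhrs3* (0.43 ± 0.12), a retinaldehyde reductase, and *Rarb* (0.41 ± 0.14), a receptor that is also a target of the pathway, had maxillary differences of -0.40, -0.29 and -0.45. Their nasal differences were 0.03, 0.14 and -0.04. *Cyp26a1*, which degrades retinoic acid, had -0.06.

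In the list of frontonasal identity genes 10 of 12 were positive with a median of 0.14 (0.07 to 0.26). With presence in both prominences required, fewer were tested and 5 of these were positive, a count that cannot be set against the 10. *Alx1*, a homeobox gene of frontonasal mesenchyme, had 0.46 ± 0.18, from 9.65, 9.71 and 9.22 in control and 8.97, 9.06 and 8.91 in NeoNull maxillary pools. In the oral and first-arch list 10 of 18 were positive with a median of 0.06 (-0.03 to 0.19), and the 2 with an unadjusted p under 0.05 were *Dlx5* and *Foxf1*. *Dlx5*, of the arch and of the olfactory placode, had 0.73 ± 0.17 and measured 6.95, 7.21 and 7.17 in control against 6.60, 6.21 and 6.51 in NeoNull maxillary pools. *Dlx5* was also higher in nasal than in maxillary tissue in all 6 pools, by 0.61 to 1.67.

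**Figure D4:**
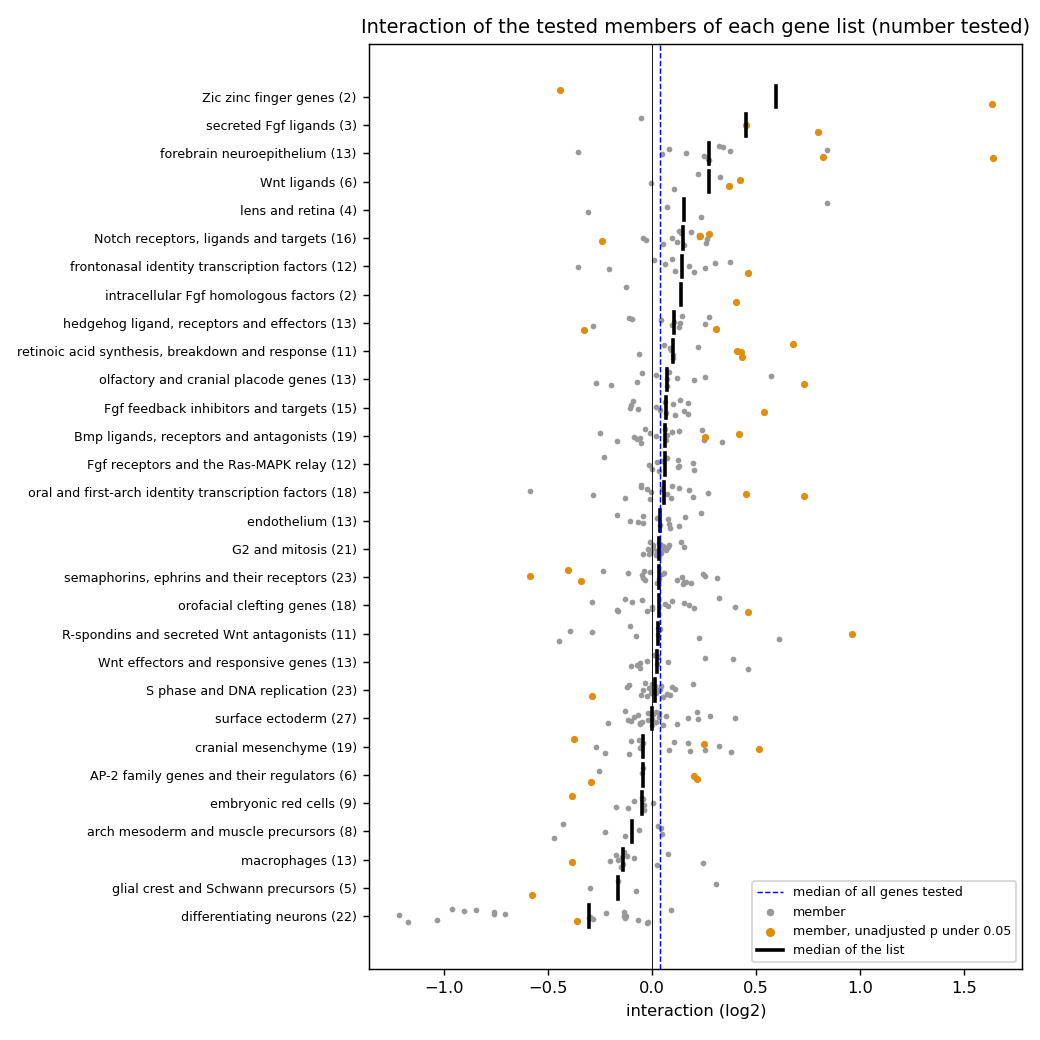
Interaction in log2 units (horizontal axis) of the tested members of 30 gene lists, ordered by median, with the number tested in parentheses. Grey points are members, orange points those at unadjusted p under 0.05, black bars list medians, and the dashed line the median of all genes tested, 0.04. Differentiating neurons lie lowest, with a median of -0.30.

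For the signaling pathways, the secreted Fgf ligands were few. *Fgf17* (0.80 ± 0.20) and *Fgf8* (0.45 ± 0.14), ligands of the olfactory pit rim and the forebrain, had unadjusted p under 0.05, and the third tested, *Fgf9*, had -0.05 ± 0.11. *Fgf8* measured 7.99, 8.11 and 8.19 in control and 8.59, 8.51 and 8.45 in NeoNull nasal pools, and 7.56, 7.94 and 7.78 against 7.84, 7.51 and 7.83 in maxillary pools. The nasal pools did not overlap and the maxillary pools did. *Fgf17* differed by 0.79 ± 0.15 in nasal and -0.01 ± 0.15 in maxillary tissue, and *Fgf12*, an intracellular Fgf homologue, by 0.50 ± 0.14 and 0.09 ± 0.14. The targets and feedback inhibitors had smaller values: 11 of 15 were positive with a median of 0.07 (0.0093 to 0.14), *Egr1* alone had an unadjusted p under 0.05 (0.54 ± 0.20), and *Dusp6*, a phosphatase induced by Fgf signaling, had 0.07 ± 0.09.

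Of 6 Wnt ligands tested, 5 were positive with a median of 0.27 (0.19 to 0.34), *Wnt5b* with 0.42 ± 0.17 and *Wnt4* with 0.37 ± 0.13. *Wnt4* had 0.24 without NeoNull nasal replicate 1, and its other probe set had -0.01. *Wnt9b*, which the study followed up, was not among the probe sets tested. The Wnt effectors and responsive genes had 8 of 13 positive with a median of 0.02 (-0.06 to 0.16), and *Axin2*, a direct target, had 0.46 ± 0.22, with 0.30 without control maxilla replicate 2 and 0.70 without control maxilla replicate 3. In the Notch list 13 of 16 were positive with a median of 0.15 (0.10 to 0.21), *Notch2* (0.28) and *Mfng* (0.23) highest by p, and *Hey1*, a target, at -0.24, which became -0.11 without control pool 3. The hedgehog list had 9 of 13 positive with a median of 0.11 (0.07 to 0.14). Its coreceptors *Cdon* and *Boc* had 0.31 ± 0.08 and -0.32 ± 0.09 in their brightest probe sets and the reverse signs, -0.14 ± 0.15 and 0.11 ± 0.16, in their other ones, so no direction is given for either.

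Of the lists of cell types and tissues, those of neurons, glial crest, macrophages, arch mesoderm, red cells and cranial mesenchyme had negative medians. That of cranial mesenchyme changed sign in 7 settings. It turned to 0.04 without control maxilla replicate 3 and to 0.13 without NeoNull nasal replicate 3. Differentiating neurons were negative in 21 of 22 tested genes with a median of -0.30, and *Elavl2*, an RNA-binding protein of neurons, was the member with an unadjusted p under 0.05 (-0.36 ± 0.16, and -0.20 without control pool 3). The median rested on 1 control pool. Without control maxilla replicate 3, 11 of 22 were positive and the median was -0.0019, and without both arrays of control pool 3, 8 of 22 were positive with a median of -0.08. The median nasal minus maxillary difference of the neuronal genes was 0.79 in control pool 3 and below 0 in the other 5 pools. Macrophage genes were negative in 10 of 13 with a median of -0.14 (-0.19 to -0.05). *Csf1r*, their growth factor receptor, had -0.38 ± 0.12 in its brightest probe set and 0.03 ± 0.13 in the other. Genes of embryonic red cells were negative in 8 of 9 with a median of -0.04 (-0.13 to 0.02). Glial crest genes were negative in 4 of 5 with a median of -0.16, which was -0.05 without control maxilla replicate 3. The surface ectoderm, where AP-2 factors are abundant, was evenly divided, with 14 of 27 positive and a median of 0.0017 (-0.05 to 0.07).

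**Figure D5:**
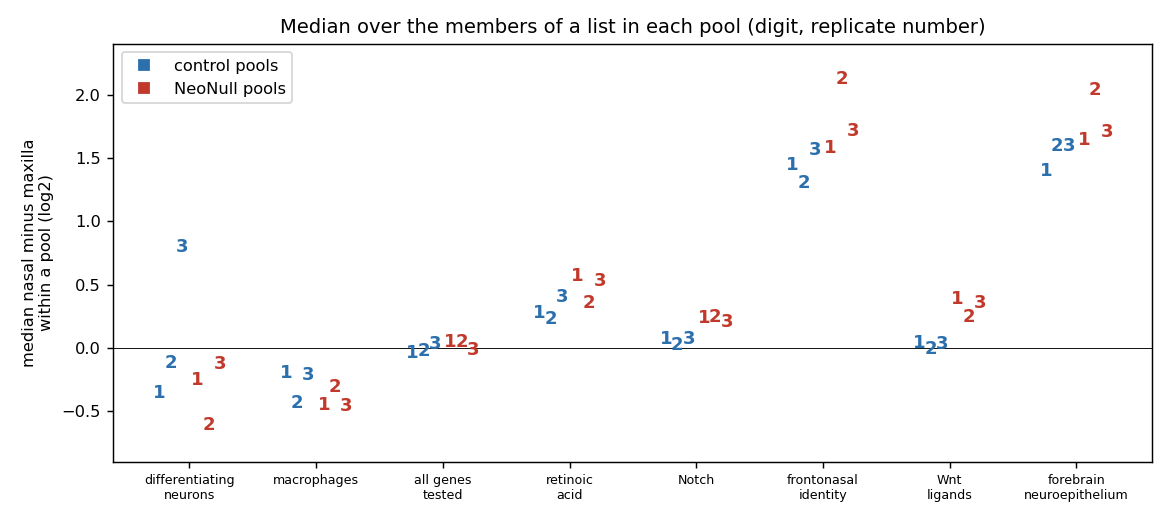
Median nasal minus maxillary log2 difference over the tested members of 7 gene lists and of all genes tested (vertical axis), in each control and NeoNull pool, with the digit giving the replicate number. In the neuronal list control pool 3 stands alone at 0.79. The 3 NeoNull pools lie above the 3 control pools in the Notch, Wnt ligand, forebrain and frontonasal identity lists. Of the lists not shown, this also held for the hedgehog and Zic lists. The reverse order held for the list of R-spondins and secreted Wnt antagonists. The 7 lists are a choice from 30, and such separation has a share near 0.1 without any genotype difference, so it is a description only.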

How the data were processed

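RNA of pooled E10.5 prominences was hybridized to 12 Affymetrix mouse arrays, 3 per genotype and prominence. Each probe set has 1 log2 signal per array, which the authors made in GeneChip Operating Software with a single scaling factor for an array. They ran from 2.07 to 14.3 with array medians of 5.13 to 5.19 and were used unchanged. The sources used here leave the summary of probes into a probe set unclear. The authors also deposited a detection call (present, absent or variable) for each group of 3 arrays, whose rule is not stated, and 12 further value columns in that table were not used.

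1 mean per group was fitted to all 12 arrays with limma 3.58.1 in R 4.3.3, with the pool as a random block (consensus correlation 0.169), 8 residual and 3.37 prior degrees of freedom, and Benjamini-Hochberg adjustment over the 22148 tested probe sets at a threshold of 0.05. The labels give the same numbers to nasal and maxillary pools and do not say that they are of the same embryos. Their deviations from the group means correlated at 0.203 to 0.288 across probe sets in the 6 pools, each best with its own number. The fit was tested on simulated data. The number of arrays limits the precision.

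A gene was read from its tested probe set with the highest mean. The annotation gave 1 symbol to 34945 probe sets, several to 932 and none to 9211. The genes named are the 10 positive and 10 negative ones with the smallest p, those the study names where analysed here, up to 4 members per list with the smallest p, the 5 largest at unadjusted p under 0.05, and the 5 with the smallest p whose genotypes did not overlap in either prominence and had opposite signs. A few others, such as *Otx2* and *Cyp26a1*, were named after their values were seen. The comparison, its members and the 30 lists were chosen with earlier results of these data known. Alternatives varied the block, the presence filter, the scaling, the offset, the variance model, the array weights and the pools.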

Additional observations from a re-analysis of the deposited data

How the results depend on the processing

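The direction of every gene among the 10 positive and 10 negative was the same under all alternatives run. These genes were chosen by their interaction in the same arrays, so a kept sign was nearly fixed in advance. The other probe sets of *Boc* (0.11) and *Pwwp2a* (0.08) had the opposite sign, and those of *Fbrs*, *Sbf1*, *Zeb2*, *Nrp1* and *Adam12* the same. Of 3977 values of the 129 genes followed, 16 changed sign. The interaction passed limma's adjusted threshold at 0 probe sets in most settings. It passed at 1 (*Zic1*) on log2 of the linear value plus 32, at 2 (*Emx2* and a probe set with no single symbol) with trended and robust variance, and at 0 to 1 when 1 array or pool was left out, the 1 being *Fezf1* without control nasal replicate 2. With the pool as a fixed replicate block it passed at 0, with no replicate block at 0, and with the replicate number as a block at 2 (*Smoc2* and *Emx2*). The counts at unadjusted p under 0.05 in these 3 fits were 1440, 1053 and 1343. Between the genotypes, arrays of the same number correlated at -0.168 to 0.486. Those of replicate 3 correlated at 0.486 in maxillary and 0.209 in nasal tissue, against at most -0.346 and -0.00589 with another number. For replicates 1 and 2 the highest correlation was with another number in both tissues. The cause was not tested.

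At unadjusted p under 0.05 the count of 1457 was 2902 with array weights and 2357 with no presence filter, and 845 to 3027 with 1 array or pool left out. It was 2817 without control maxilla replicate 3, 3027 without control pool 3, 967 without NeoNull maxilla replicate 2, 907 without NeoNull pool 2, 945 without control maxilla replicate 2, 922 without control pool 2 and 845 without control pool 1. With the fold threshold the count of 510 was 882, 1261 and, with the offset, 170, and 397 to 1330 with 1 left out. The nasal count was 2333 with no filter and 506 to 1768 with 1 left out. The maxillary count was 2855 with array weights, 2242 with no filter and 794 to 2915 with 1 left out. Adjusted calls between prominences were 4191 with array weights and 1253 to 3065 with 1 left out in the control pools, and 1614 to 3605 in the NeoNull pools. With the offset of 32 the interactions of *Rgs4*, *Six6*, *Sox3*, *Wnt5b*, *Zic5*, *Egr1* and *Foxf1* were -0.68, 0.53, 0.20, 0.27, -0.19, 0.32 and 0.22, and *Foxf1* had 0.25 without NeoNull pool 2. The causes were not tested. Signal over background was not measured, and genes not called present in the maxilla, such as *Zic1*, *Rspo1*, *Fezf1* and *Fgf17*, have their maxillary differences at dim levels. *Six6*, *Sox3*, *Zic5*, *Fgf9*, *Fgf12*, *Rgs4*, *Kcnmb2* and *Vgll2* were likewise not called present in both genotypes of both prominences.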

Other observations

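Probe sets of 1 gene differed in the interaction. Of the 25 probe sets with the smallest p, 22 had a single symbol and 9 of these were not the brightest of their gene, so that the value of the gene given in the report is another. A probe set of *Shox2*, a homeobox gene of the face and limb, had an interaction of 0.97, and the brightest one -0.05. A probe set of *Marchf7*, a ubiquitin ligase gene, had 0.39 and its brightest one -0.22. These genes were chosen after their values were seen.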
